A study of Rattus norvegicus with 12 samples.

Results

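The 4 livers of newborn rats whose dams ate a maternal low protein diet (MLP) were set against the 8 other livers of the series, of which 4 came from the low protein diet with extra folic acid (MLP-F) and 4 from the control diet (C), 12 livers in all. The livers were chosen by their diet label alone. The contrast was the MLP mean minus the average of the MLP-F and C means, which marks what stood apart on the low protein diet without added folate. All pups were male Wistar rats on postnatal day 1, whose dams were held on their diet through pregnancy. Both low protein diets held less casein than the control diet, and no group combined extra folate with the control diet. Per the study's methods 1 litter was used per diet, so that the pups of a group were littermates, diet and litter cannot be told apart, and every p-value measures the spread among pups of a litter.

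The liver of a newborn rat is in transition. Its hepatocytes still divide, blood cells are still made in it, and enzymes of amino acid breakdown, urea synthesis, gluconeogenesis and detoxification are switched on around birth. Folate carries one-carbon units for thymidylate and purine synthesis and, through methionine and S-adenosylmethionine, for the methylation of DNA, histones and metabolites.

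Expression was measured on a 1-colour bead array, and 15753 of its 22505 probes, whose mean passed the 30th percentile, were tested with limma. The deposited values ran only from 4.00 to 4.63 and were read as log2 of 16 plus a value that was already a log2. Taking 16 off gave a re-expanded log2 scale from 0.047 to 8.82, on which all levels and differences below are given. That reading is inferred from the values. If it holds, a difference is close to a log2 ratio and is understated for dim probes. Within MLP the livers correlated at r = 0.990 to 0.993 over probes, within MLP-F at 0.980 to 0.990 and within C at 0.9765 to 0.9893. Each MLP liver correlated with the other 8 at 0.971 to 0.985, which overlaps the ranges within MLP-F and within C. Hepatocyte marker levels summed to 61.3 to 62.8 in MLP, 57.3 to 60.8 in MLP-F and 58.5 to 62.1 in C, and limma called 0 of their 10 probes (3 at an unadjusted p under 0.05), 2 higher without C replicates 1 and 4 and up to 3 higher with 1 liver left out, though Hnf4a lay near the floor of the scale in all groups (means 0.23, 0.20 and 0.22).

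A pair of C livers, replicates 1 and 4, had raised markers of cells other than hepatocytes, which differed between the 2. By median level, skeletal muscle markers stood at 0.23 in C replicate 1 and 4.28 in C replicate 4, lung markers at 0.15 and 1.51, and keratinocyte markers at 2.60 and 0.20. Markers of stellate cells and fibroblasts, which liver also holds, stood at 3.79 and 2.02. The skeletal muscle marker levels summed to 4.64 to 5.07 in MLP, 4.38 to 5.34 in MLP-F and 5.08 to 37.5 in C, and the stellate cell and fibroblast levels to 12.1 to 14.8, 12.8 to 20.1 and 12.4 to 39.4. Of these 9 and 10 probes limma called 0 in MLP against the others (0 and 1 at an unadjusted p under 0.05), and the medians of -0.52 and -0.70 moved to -0.04 and -0.22 without C replicates 1 and 4. MLP-F replicate 2 stood at -4.59 on the second principal component, against 10.6 to 21.8 in its littermates and -21.3 to 0.08 in C, while on the first (28.4% of variance) MLP stood at 16.3 to 18.1 and the other 8 at -13.4 to -2.33. Their part in the results was not tested, and counts without the pair of C livers are given beside the larger groups of genes and, for others, at the end.

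MLP differed from the average of the MLP-F and C means at 1058 of the 15753 probes (6.72%), 552 of them higher (3.5%) and 506 lower (3.21%), at an adjusted p under 0.05, a probe termed called. They held 881 probes with a gene symbol, of 874 genes, and 177 without. Their median size was 0.44, against 0.06 over all probes, and 57 exceeded 1, of which 40 were higher and 17 lower. The median difference of all probes was -0.00079. At 758 probes (4.81%) all 4 MLP values lay outside the range of the other 8, above it at 374 (2.37%) and below it at 384 (2.44%), and among called probes this held for 635 (60.02%). Set against each diet on its own, limma called 685 probes (4.35%) in MLP vs C and 1037 (6.58%) in MLP vs MLP-F, which share the MLP livers. The count rested on the number of MLP livers: without MLP replicate 2, 3 or 4 it was 580, 622 and 665. Without C replicates 1 and 4 it was 855, of which 753 were among the 1058. Of 147 probes named by a rule, 144 were called, and 109 of these kept the call with any 1 liver left out.

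The remaining question was whether MLP-F and C also differed where MLP stood apart. With 4 livers a group the contrast of MLP-F with C is independent of the main one except for the shared variance. It gave 76 called probes in all (0.482%, and 14.9% at an unadjusted p under 0.05), and 28 of the 1058 (2.65%). At an unadjusted p under 0.05 it held 28.1% of the 1058 and 13.99% of the probes that were not called. The median size of MLP-F minus C was 0.137 in the 1058 and 0.060 in the rest. For 699 of them (66.1%) the whole 95% interval of MLP-F minus C was smaller in size than the MLP difference, and at 54 probes the MLP-F minus C estimate was the larger. A call already required an MLP difference larger than the half-width of that interval, so the 66.1% is in part set by the selection. Of the 1058, MLP-F lay on the MLP side of C at 460 and on the far side at 598, and among the 297 with an unadjusted p under 0.05 these were 98 and 199.

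**Figure D1:**
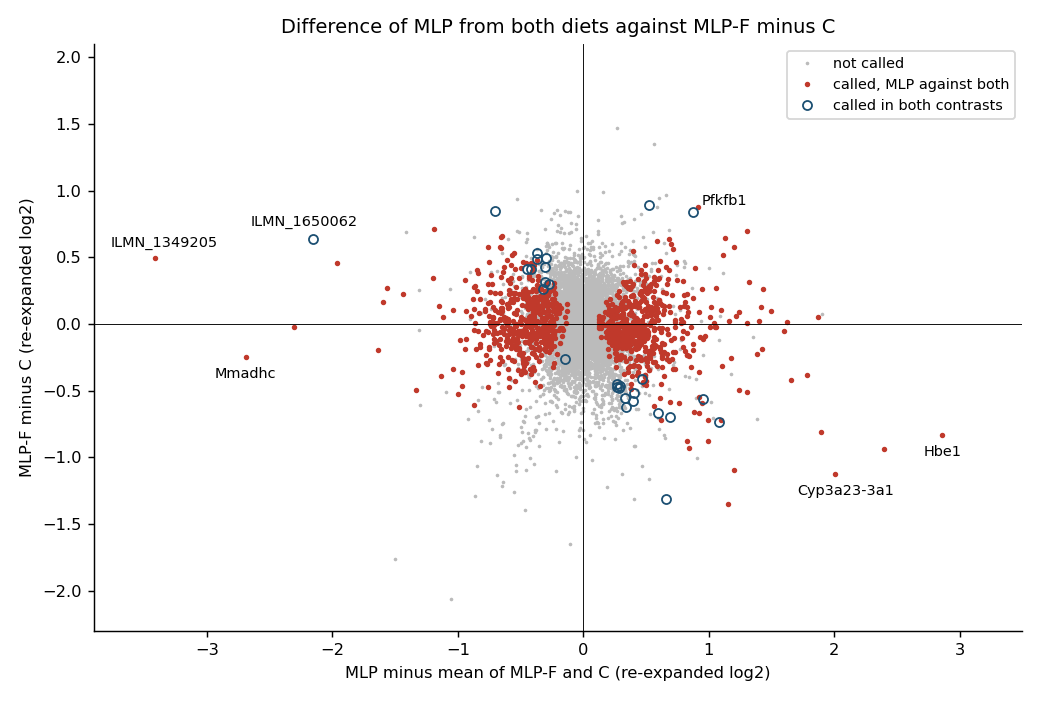
MLP minus the mean of MLP-F and C (x axis) against MLP-F minus C (y axis) for the 15753 probes, both on the re-expanded log2 scale. Called probes (red) spread to -3.42 and 2.86 on the x axis and lie mostly near 0 on the y axis, and the 28 probes called in both contrasts (circles) include Pfkfb1 and ILMN_1650062.

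The largest rise was in Hbe1, the embryonic epsilon globin. It stood at 4.04, 2.67, 4.70 and 3.90 in the MLP livers, against 0.69, 0.40, 0.75 and 0.37 in the MLP-F livers and 1.04, 1.83, 0.67 and 1.99 in the C livers. Its difference was 2.86 (SE 0.34, adjusted p = 0.00110), the lowest MLP liver lay above the highest of the other 8, and MLP-F minus C was -0.83 (95% interval -1.69 to 0.03). The largest fall of all belonged to ILMN_1349205, a probe with no gene symbol in the platform annotation, at 0.27, 0.22, 0.35 and 0.47 in the MLP livers, against 3.93, 4.31, 3.90 and 3.84 in the MLP-F livers and 3.59, 3.40, 3.37 and 3.62 in the C livers. It fell by 3.42 (SE 0.09, adjusted p = 3.78e-09) and was near the floor of the scale in MLP livers alone.

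Mmadhc, which directs cobalamin inside the cell towards its cofactor forms, had the largest fall among named genes. Its levels were 1.72, 1.49, 1.56 and 1.85 in the MLP livers, against 3.59, 4.48, 4.13 and 4.68 in the MLP-F livers and 4.56, 4.45, 4.43 and 4.43 in the C livers. The difference was -2.69 (SE 0.16, adjusted p = 1.22e-05), with the highest MLP liver at 1.85 and the lowest other liver at 3.59, and MLP-F minus C was -0.25 (95% interval -0.66 to 0.16). Of the other 8 kept probes of cobalamin handling, Tcn2, the plasma carrier of cobalamin, rose by 0.34 (adjusted p = 0.0273, and 0.0657 to 0.0913 without MLP replicate 2, 3 or 4), and 7 did not pass. ILMN_1650062, also without a symbol, fell by 2.15 (SE 0.07, adjusted p = 1.68e-08). At this probe MLP-F and C differed as well, by 0.63 (adjusted p = 0.0152), with means of 2.64 in MLP, 5.11 in MLP-F and 4.48 in C.

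The other large rises among genes with separated groups were Cyp3a23-3a1 (2.01), Cyp2b15 (1.78), Rbp2 (1.62), a cellular retinol-binding protein, Got1 (1.50), Usp2 (1.44), Per1 (1.43), Tsku (1.42), a secreted protein of the liver, and Hrk (1.32), a pro-apoptotic member of the Bcl2 family (adjusted p = 0.000308 to 0.00846). The other large falls were Spink1l (-1.96), C9 (-1.64), Fabp2 (-1.59), an intestinal type fatty acid-binding protein, Lrrc42 (-1.57), Cldn3 (-1.44), a tight junction claudin, Hao1 (-1.33), Alox15 (-1.13), Dpt (-1.12), an extracellular matrix protein of fibroblasts, and Rfc2 (-1.04) (adjusted p = 0.000254 to 0.00464). Dpt stood at 2.01, 2.13, 1.97 and 1.35 in the MLP livers, against 2.90, 3.14, 3.14 and 2.86 in the MLP-F livers and 3.43, 2.51, 2.91 and 2.998 in the C livers. In these genes the separation of the groups was required by the naming rule and is no further evidence.

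**Figure D2:**
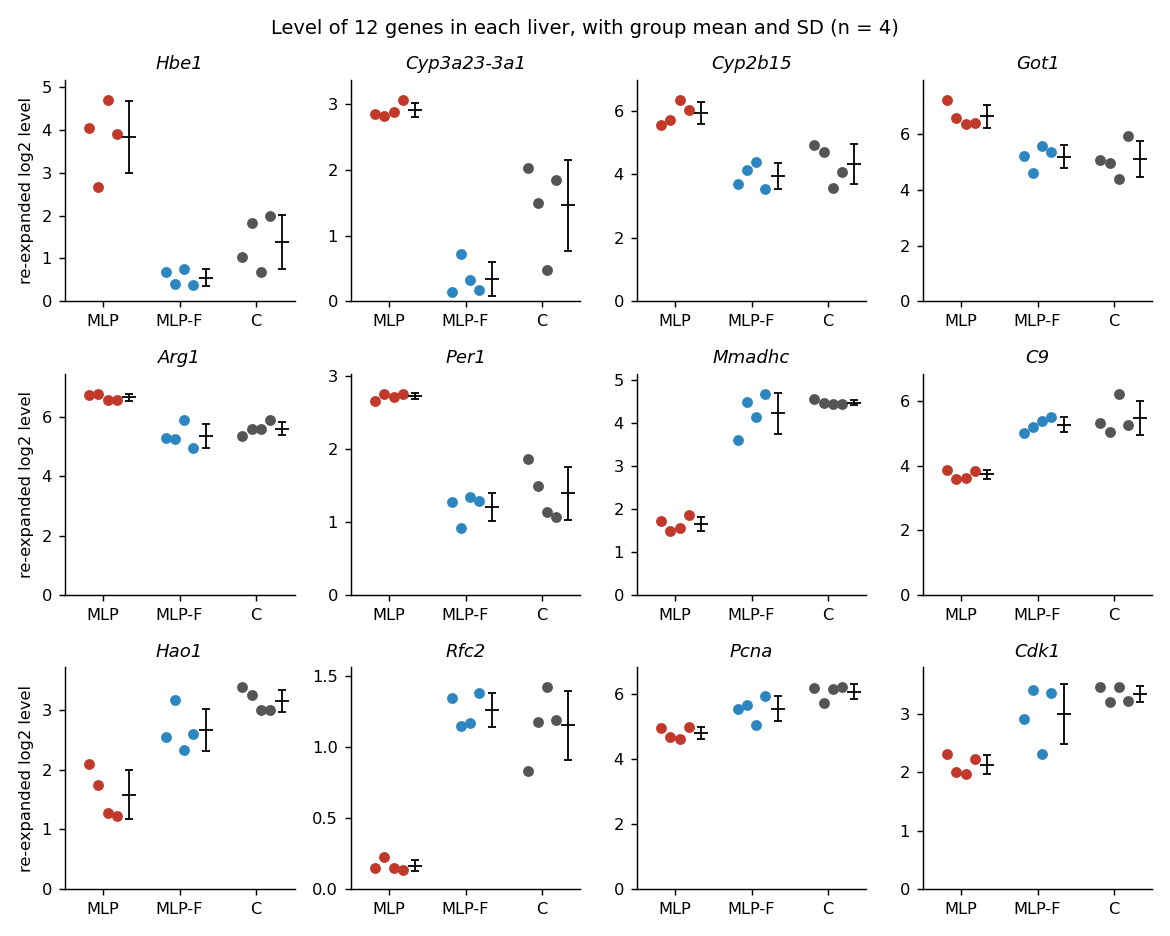
Level of 12 genes on the re-expanded log2 scale (y axes start at 0) in each liver, with MLP on the left, MLP-F in the middle and C on the right, and the group mean with SD (n = 4) beside the points. In each panel the 4 MLP points lie on one side of the other 8, as for Per1 (2.66 to 2.76 in MLP and at most 1.87 in the others) and Rfc2 (at most 0.22 in MLP and at least 0.83 in the others). Most of these genes were named by a rule that required this.

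Many genes of DNA replication fell. Of 52 genes listed, 45 were kept with 47 probes, of which 22 fell (46.8%) and 0 rose, with a median difference of -0.38, and 42 of 47 estimates were below 0. The count was 21 without C replicates 1 and 4, and 18 to 24 with 1 liver left out. In all 47 limma called 0 between MLP-F and C, where the median was -0.08. These and the other gene lists were drawn up with earlier results of these data known. The counts of each list are to be read beside 3.5% of all probes called higher and 3.21% called lower.

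The falls took in both the licensing of origins and the fork. In licensing, the origin recognition subunits Orc1 (-0.47) and Orc6 (-0.59), the loader Cdc6 (-0.56) and the helicase subunits Mcm6 (-0.98), Mcm7 (-0.67), Mcm2 (-0.65) and Mcm3 (-0.57) fell, as did Gmnn (-0.78), the licensing inhibitor. Mcm6 had levels of 3.78, 3.59, 3.28 and 3.62 in the MLP livers, against 4.66, 4.25, 4.20 and 4.85 in the MLP-F livers and 4.31, 4.68, 4.79 and 4.66 in the C livers. The lowest of the other 8, MLP-F replicate 3, stood above the highest MLP liver. Among the other helicase subunits, Mcm4 was at -0.33 (adjusted p = 0.0723) and one Mcm5 probe at -0.06 (0.753), not called, and Mcm3 was not called without C replicates 1 and 4 (adjusted p = 0.0752), without MLP replicate 2, 3 or 4 (0.0645 to 0.103) or without MLP-F replicate 1 (0.0503).

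At the fork, the sliding clamp Pcna and the subunits Rfc2 and Rfc4 of its loader fell, with Rfc4 at -0.68, while Rfc1 (-0.30, adjusted p = 0.0795), Rfc3 (-0.51, 0.0987) and Rfc5 (-0.27, 0.338) did not pass. Rfc2, a clamp loader subunit, had levels of 0.15, 0.22, 0.15 and 0.14 in the MLP livers, against 1.34, 1.14, 1.17 and 1.38 in the MLP-F livers and 0.83, 1.17, 1.42 and 1.19 in the C livers. All 4 MLP livers lay near the lower end of the scale, and the difference was -1.04 (SE 0.09, adjusted p = 0.000253). Pcna stood at 4.95, 4.68, 4.60 and 4.97 in the MLP livers, against 5.52, 5.66, 5.02 and 5.94 in the MLP-F livers and 6.17, 5.72, 6.15 and 6.19 in the C livers. Its difference was -0.996 (SE 0.15, adjusted p = 0.00388), and here MLP-F lay between MLP and C, with MLP-F minus C at -0.52 (95% interval -0.91 to -0.13). Falls were also called in the polymerase subunits Pole (-0.61), Pole2 (-0.63) and Pola2 (-0.41), the helicase partners Mcm10 (-0.46), Gins1 (-0.52) and Gins4 (-0.29), the single-strand binding subunit Rpa2 (-0.63), and Lig1 (-0.46) and Fen1 (-0.60), which join and trim Okazaki fragments. Among genes of nucleotide supply 4 of 12 probes fell and 0 rose. They were Rrm2 (-0.87), a ribonucleotide reductase subunit, Tyms (-0.94), the folate-dependent thymidylate synthase, Dtymk (-0.43) and Dctd (-0.34), and all 4 kept their call with any 1 liver left out.

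Tyms, the member that uses folate directly, stood at 1.71, 1.25, 1.18 and 1.61 in the MLP livers, against 2.69, 2.24, 2.11 and 2.65 in the MLP-F livers and 1.92, 2.20, 2.74 and 2.46 in the C livers. The MLP livers were lower than all others, the nearest being C replicate 1, and MLP-F minus C was 0.10 (95% interval -0.33 to 0.52). Rrm2 had its MLP-F mean between those of MLP and C, at 2.77 ± 0.11 in MLP, against 3.33 ± 0.28 in MLP-F and 3.94 ± 0.19 in C (SD, n = 4 each). MLP-F minus C was -0.60 (95% interval -0.89 to -0.32) for Rrm2, with an adjusted p of 0.0761.

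The sequences just upstream of replication genes are shown for the E2F letters that several of them share. The E2F factors bind promoters of replication genes, and late cell cycle genes often carry a CHR element, TTTGAA. TTTCGCGC, TTTGGCGC and their reverse complements were searched as E2F letters and TTTGAA with its reverse complement as CHR letters, from 250 bases before to 50 after the start in RefSeq promoters of build GRCr8. E2F letters were in 9 of the 19 called replication genes with an entry (47.4%), in 5 of 20 that were kept and not called (25%) and in 0.792% of all 33469 promoters. CHR letters were in 13 of 20 called mitosis genes (65%), in 11 of 17 that were not called (64.7%) and in 18.3% of all promoters. The CHR share was thus close in called and uncalled members of the list. The E2F shares of 9 of 19 and 5 of 20 rest on few genes, and their difference was not tested. Because E2F factors bind promoters of replication genes, an excess over all promoters comes with the choice of the list. The share of all promoters counts every entry, whereas each listed gene was searched at a single entry. The 250 bases before the start are given below, 5′ to 3′ on the gene's strand, with E2F letters in capitals in the first 4 and CHR letters in Cdk1. Cdk1 also holds 1 E2F match and Mcm2 also holds 2 CHR matches, which are left in lower case. They lie at Mcm2 chr4:122918095-122918344 (-), Mcm6 chr13:42404353-42404602 (-), Mcm7 chr12:22163179-22163428 (-), Gins1 chr3:160184670-160184919 (+) and Cdk1 chr20:19265043-19265292 (+). In Mcm2, Mcm6 and Gins1 a pair of matches on opposite strands overlap, and they start 14 and 10, 139 and 135, and 25 and 21 bases upstream.
Mcm2: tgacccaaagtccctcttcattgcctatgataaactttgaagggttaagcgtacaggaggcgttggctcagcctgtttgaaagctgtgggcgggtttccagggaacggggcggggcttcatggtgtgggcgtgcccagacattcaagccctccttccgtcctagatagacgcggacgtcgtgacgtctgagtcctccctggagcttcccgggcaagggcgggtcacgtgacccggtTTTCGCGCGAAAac
Mcm6: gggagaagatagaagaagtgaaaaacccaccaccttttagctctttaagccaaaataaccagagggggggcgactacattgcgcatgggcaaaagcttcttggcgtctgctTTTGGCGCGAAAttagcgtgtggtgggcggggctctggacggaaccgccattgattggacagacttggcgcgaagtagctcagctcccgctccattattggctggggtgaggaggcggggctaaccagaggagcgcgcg
Mcm7: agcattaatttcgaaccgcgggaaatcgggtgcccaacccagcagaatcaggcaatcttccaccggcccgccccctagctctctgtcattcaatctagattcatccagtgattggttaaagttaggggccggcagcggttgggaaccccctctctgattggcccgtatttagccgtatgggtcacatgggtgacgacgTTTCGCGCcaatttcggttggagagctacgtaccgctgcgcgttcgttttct
Gins1: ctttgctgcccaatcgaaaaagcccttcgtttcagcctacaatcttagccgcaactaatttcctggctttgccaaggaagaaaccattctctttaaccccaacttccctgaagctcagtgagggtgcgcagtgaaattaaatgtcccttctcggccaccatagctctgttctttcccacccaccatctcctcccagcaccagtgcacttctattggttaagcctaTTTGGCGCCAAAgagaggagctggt
Cdk1: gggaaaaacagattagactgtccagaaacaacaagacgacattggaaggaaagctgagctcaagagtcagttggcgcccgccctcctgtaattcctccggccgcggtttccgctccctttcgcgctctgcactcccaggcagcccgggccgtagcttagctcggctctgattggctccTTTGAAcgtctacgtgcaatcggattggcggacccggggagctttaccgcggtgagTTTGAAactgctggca

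Mitosis genes fell in like numbers. Of 45 kept probes (44 of 65 genes listed) 23 fell (51.1%) and 0 rose, with a median of -0.46 and 41 estimates below 0. The count was 19 without C replicates 1 and 4 and 15 to 29 with 1 liver left out, the 15 being without MLP replicate 2. Cdk1, whose kinase activity starts mitosis, stood at 2.31, 1.999, 1.97 and 2.23 in the MLP livers, against 2.90, 3.42, 2.31 and 3.35 in the MLP-F livers and 3.45, 3.20, 3.45 and 3.22 in the C livers. The highest MLP liver, replicate 1 at 2.31, was just under MLP-F replicate 3, also 2.31 after rounding. The difference was -1.04 (SE 0.18, adjusted p = 0.00603), and MLP-F minus C was -0.34 (95% interval -0.78 to 0.11). The fall included the cyclin Ccna2 (-0.84), the kinases Aurkb (-0.69), Bub1 (-0.75) and Ttk (-0.66), the kinetochore proteins Spc25 (-0.83), Cenpk (-0.71) and Nuf2 (-0.60), the motor Kif20a (-0.74) and the tubulin Tubb5 (-0.78). Kif20a levels were 1.48, 1.41, 1.51 and 1.37 in the MLP livers, against 2.23, 2.17, 1.91 and 2.46 in the MLP-F livers and 2.13, 2.15, 2.46 and 1.96 in the C livers. They did not overlap. Aurka (-0.10, adjusted p = 0.758) and Cenpa (0.02, adjusted p = 0.875) did not pass.

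**Figure D3:**
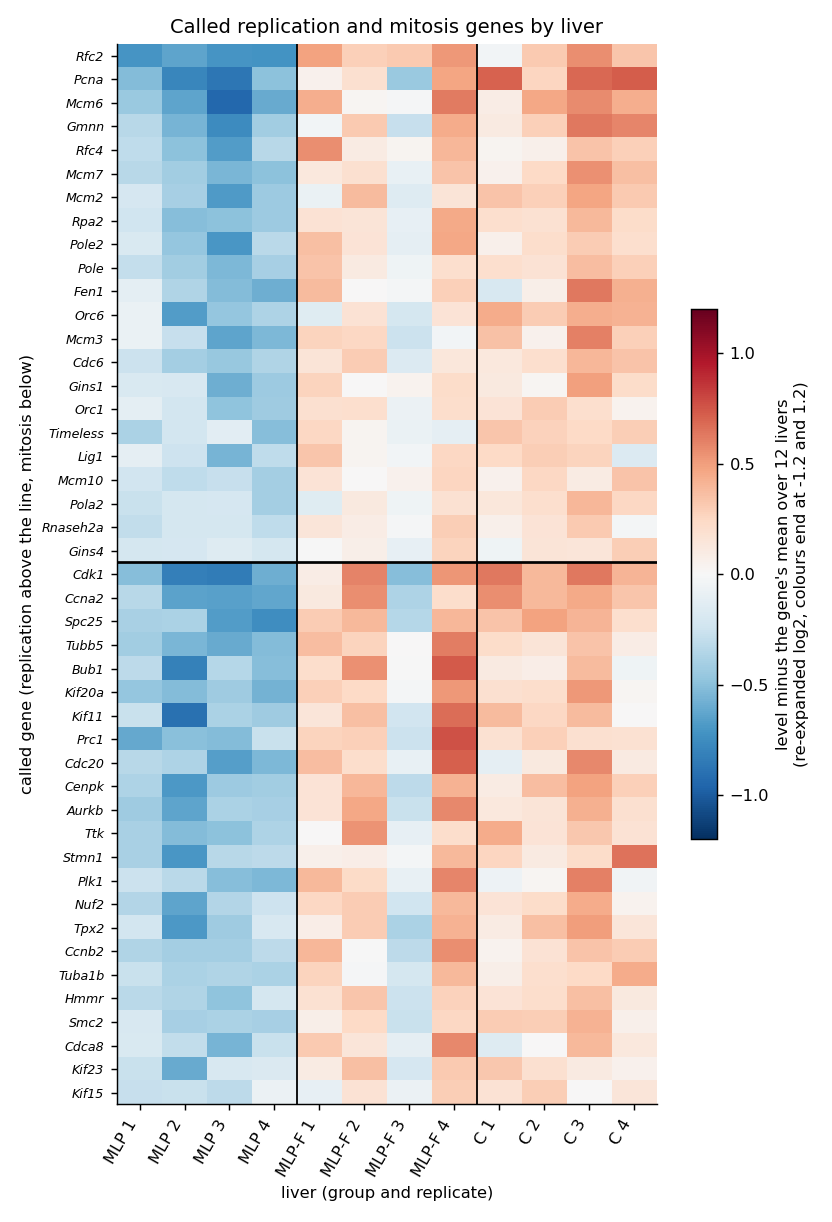
Heat map of the 22 called replication genes (above the line) and 23 called mitosis genes (below it) in each liver, as the level minus the gene's mean over the 12 livers on the re-expanded log2 scale. Only genes called lower are shown, so the 4 MLP columns on the left are below the mean by selection. Of the other 8 the MLP-F replicate 3 column is nearest to them, as for Cdk1 (2.31, against 2.90 to 3.42 in the other MLP-F livers).

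Within MLP-F, replicate 3 was low in several of these genes. Its level was 2.31 for Cdk1 and 5.02 for Pcna, against 2.90 to 3.42 and 5.52 to 5.94 in its littermates. The mitosis markers summed to 53.5 to 60.2 in MLP, 62.3 to 84.7 in MLP-F and 76.3 to 83.3 in C, and the replication markers to 67.7 to 76.5, 78.2 to 91.6 and 87.5 to 97.0, with no overlap of MLP with the other 8. In these whole-liver samples fewer dividing cells and less RNA per cell cannot be told apart. The erythroid list, whose precursors divide in newborn liver, summed to 99.2 to 107 in MLP, 103 to 113 in MLP-F and 102 to 112 in C, and its part was not tested.

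Some chromatin genes tied to replication also fell. Of 26 kept probes of polycomb and histone variant genes 7 fell (5 without C replicates 1 and 4, and 4 without MLP replicate 2 or 3) and 0 rose, with a median of -0.12. They included the histone variant H2az1 (-0.75), the chromatin protein Hmgb2 (-0.76), the histone chaperones Nasp (-0.61), Asf1b (-0.44) and Chaf1b (-0.36), and Hat1 (-0.59), a histone acetyltransferase. Hat1 was not called without C replicates 1 and 4 (adjusted p = 0.0762) or without any 1 of the 4 MLP livers (0.0505 to 0.0761). Ezh2, the polycomb methyltransferase, did not pass (-0.31, adjusted p = 0.0677), with 0.53 ± 0.06 in MLP, against 0.68 ± 0.26 in MLP-F and 1.001 ± 0.05 in C (SD, n = 4 each). In DNA repair 6 of 29 probes fell and 0 rose, Pcna among them, with Chek2 (-0.56), Bard1 (-0.41) and Exo1 (-0.53). The median of this list was -0.06, and 4 to 7 were called with 1 liver left out. G1 and E2F regulators gave 1 rise and 3 falls in 22 probes, with the growth inhibitor Cdkn1c (0.35) higher and the E2F partner Tfdp1 (-0.48) and the cyclin Ccne2 (-0.43) lower.

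The DNA methyltransferases split. Dnmt1, which copies methylation at replication, stood at 2.61, 2.59, 2.42 and 2.67 in the MLP livers, against 3.34, 3.08, 2.94 and 3.45 in the MLP-F livers and 3.14, 3.09, 3.53 and 3.28 in the C livers. It fell by 0.66 (SE 0.11, adjusted p = 0.00446) with no overlap, and MLP-F minus C was -0.06 (95% interval -0.32 to 0.21). Dnmt3b, a de novo methyltransferase, stood at 2.92, 3.26, 3.24 and 3.28 in the MLP livers, against 2.64, 2.15, 2.77 and 2.22 in the MLP-F livers and 1.94, 2.44, 2.56 and 2.29 in the C livers. It rose by 0.80 (SE 0.14, adjusted p = 0.00690), with MLP replicate 1 the lowest of the 4 and still above all others. Dnmt3a had another pattern, at 3.61 ± 0.11 in MLP, against 3.33 ± 0.22 in MLP-F and 2.72 ± 0.30 in C (SD, n = 4 each). Its difference was 0.59 (SE 0.12, adjusted p = 0.0168), but MLP-F minus C was 0.62 (95% interval 0.30 to 0.93), so that MLP-F sat nearer to MLP than to C and the ranges of MLP and MLP-F overlapped. That call was lost without MLP replicate 1, 2 or 4 (adjusted p = 0.0514 to 0.0614). Of 13 kept probes of DNA methylation writers, readers and erasers 3 rose and 2 fell, Gadd45b (0.44), linked to active demethylation, and Uhrf2 (-0.36) being the others. Uhrf2 stood at 3.04 ± 0.09 in MLP, against 3.58 ± 0.11 in MLP-F and 3.22 ± 0.14 in C (SD, n = 4 each), and its MLP-F minus C was 0.36 (95% interval 0.19 to 0.53), as large as its MLP difference. Among 17 probes of genes that the study's text names, 3 rose and 10 fell, which is not independent evidence because the study chose them on these livers.

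Enzymes of amino acid breakdown were among the genes that rose. Of 39 kept probes of amino acid catabolism (38 of 50 genes listed) 12 rose (30.8%) and 1 fell, with a median of 0.18. The 12 became 11 without C replicates 1 and 4, and 6 to 13 with 1 liver left out, the 6 being without MLP replicate 2. Got1, the cytosolic aspartate aminotransferase, stood at 7.24, 6.58, 6.38 and 6.39 in the MLP livers, against 5.24, 4.63, 5.57 and 5.37 in the MLP-F livers and 5.08, 4.98, 4.39 and 5.96 in the C livers. The lowest MLP liver exceeded the highest other liver, C replicate 4, and the difference was 1.50 (SE 0.27, adjusted p = 0.00846), with MLP-F minus C at 0.10 (95% interval -0.60 to 0.79). The mitochondrial partner Got2 rose by less, 0.41 (adjusted p = 0.00547). Gpt, alanine aminotransferase, stood at 3.23 ± 0.26 in MLP, against 2.03 ± 0.38 in MLP-F and 1.94 ± 0.58 in C (SD, n = 4 each), a rise of 1.24 (SE 0.24, adjusted p = 0.0102).

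For branched-chain amino acids, both subunits of the decarboxylase, Bckdha (0.80) and Bckdhb (0.61), rose, and so did Hsd17b10 (0.71) and Ivd (0.40) further along. For tyrosine and lysine, Fah (0.69), Hpd (0.79) and Aass (1.20) rose. Aass, the first enzyme of lysine breakdown, stood at 3.57, 3.24, 3.03 and 2.63 in the MLP livers, against 1.34, 1.82, 1.58 and 0.74 in the MLP-F livers and 2.07, 2.35, 2.20 and 3.23 in the C livers. Its MLP-F livers were lowest and MLP overlapped with C replicate 4. Kmo, of the kynurenine pathway, was the member that fell (-0.86, adjusted p = 0.0135). With 1 liver left out Fah, Ivd, Hpd, Aass and Kmo each lost the call at least once, with adjusted p of up to 0.0593, 0.0983, 0.107, 0.0622 and 0.0531.

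Urea cycle genes had 2 rises and 0 falls in 8 probes. Arg1, which releases urea from arginine, stood at 6.74, 6.79, 6.56 and 6.57 in the MLP livers, against 5.30, 5.27, 5.91 and 4.96 in the MLP-F livers and 5.37, 5.58, 5.59 and 5.91 in the C livers. The groups did not overlap, and the difference was 1.18 (SE 0.15, adjusted p = 0.00147). Slc25a15, the mitochondrial ornithine carrier, rose by 0.84 (adjusted p = 0.0122). Cps1 (0.90, adjusted p = 0.0669) and Ass1 (1.09, adjusted p = 0.101) had estimates of like size but did not pass, and Otc was at -0.0032. Without C replicate 4 the urea cycle count was 4. Of 23 amino acid transporter probes limma called 0, though 4 had an unadjusted p under 0.05, and their median difference was 0.01. Of 25 probes of the amino acid shortage response 2 rose, Nupr1 (1.13) and Ddit4 (0.51), and Atf4 (-0.27), its central transcription factor, fell, against the 6.72% called over all probes. Ddit4 and Atf4 lost the call with 1 liver left out (adjusted p of up to 0.0764 and 0.145).

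Methyl group handling rose in parts. Gnmt, which spends S-adenosylmethionine to methylate glycine, stood at 5.73, 5.48, 5.70 and 5.68 in the MLP livers, against 4.36, 4.13, 5.02 and 3.87 in the MLP-F livers and 3.68, 4.32, 4.39 and 4.94 in the C livers. Its MLP livers were close together and above all others, and the difference was 1.31 (SE 0.23, adjusted p = 0.00681), with MLP-F minus C at 0.01 (95% interval -0.57 to 0.59). Ahcy, which clears S-adenosylhomocysteine, stood at 6.45 ± 0.09 in MLP, against 5.62 ± 0.22 in MLP-F and 5.82 ± 0.16 in C (SD, n = 4 each), a rise of 0.73 (SE 0.09, adjusted p = 0.00153). Sardh (0.55), which oxidises the sarcosine that Gnmt makes, rose too. Mat1a, which makes S-adenosylmethionine in liver, rose by 0.84 (adjusted p = 0.0339), yet with means of 3.92 in MLP, 2.62 in MLP-F and 3.55 in C, its distance was mainly from MLP-F, and 8 of the fits with 1 liver left out lost the call. Of 29 probes in this list 4 rose and 2, Tyms and Amt, fell, with a median of 0.03.

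Some genes of the circadian clock and its outputs were also among the rises. Of 14 kept probes 5 rose (35.7%) and 0 fell. All 4 MLP livers lay above the other 8 in each of the 5, against 2.37% of all probes. Among all called probes, 60.02% had the 4 MLP values above or below the other 8, so the call itself largely brings this about. The count of rises was 5 without C replicates 1 and 4 and 4 to 6 with 1 liver left out. Per1, a repressor of the clock, stood at 2.66, 2.76, 2.72 and 2.76 in the MLP livers, against 1.27, 0.93, 1.34 and 1.29 in the MLP-F livers and 1.87, 1.50, 1.14 and 1.07 in the C livers. The MLP values spanned only 2.66 to 2.76, and the difference was 1.43 (SE 0.13, adjusted p = 0.000308). Per2 stood at 3.83, 3.44, 3.48 and 3.27 in the MLP livers, against 3.13, 2.60, 2.72 and 2.17 in the MLP-F livers and 2.59, 2.49, 1.68 and 1.79 in the C livers. It rose by 1.11 (SE 0.21, adjusted p = 0.00999), with MLP-F replicate 1 the closest of the others, and MLP-F minus C was 0.52 (95% interval -0.01 to 1.05). Usp2, a deubiquitinase driven by the clock in mouse liver, rose by 1.44, Cry1 (0.66) also rose, and Bmal1, an activator that is expressed in antiphase to the Per genes in mouse, rose by 0.26 (adjusted p = 0.0262, lost without 3 of the single livers, at most 0.0873).

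The output Dbp (0.10, adjusted p = 0.643) and the clock genes Nr1d1 (-0.10, 0.696) and Per3 (-0.00047, 0.997) did not pass. The sources used here give no hour of culling for the litters, and its part was not tested. The 250 bases upstream of Per2, at Per2 chr9:99496994-99497243 (-) in RefSeq build GRCr8, are shown because they hold the one D-box match among the called clock genes, TTATGTAA in capitals, 192 bases before the start. D-box letters (TTATGTAA, TTATGCAA and their reverse complements) were in 1 of the 4 called clock genes with an entry, in 0 of 8 that were kept and not called and in 1.73% of all promoters, and the E-box CACGTG in 0 of 4, 2 of 8 and 6.42%.
Per2: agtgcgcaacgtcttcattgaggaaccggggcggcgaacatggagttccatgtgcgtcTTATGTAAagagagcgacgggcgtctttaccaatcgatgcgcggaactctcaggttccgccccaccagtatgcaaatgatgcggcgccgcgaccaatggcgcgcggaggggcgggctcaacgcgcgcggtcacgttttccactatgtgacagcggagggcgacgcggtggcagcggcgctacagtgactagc

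Of 21 kept probes of glucocorticoid-responsive genes 7 rose (33.3%) and 1 fell, and 4 rose and 1 fell without C replicates 1 and 4. Per1 is on this list as well. Fkbp5, a chaperone partner of the receptor, stood at 4.51, 4.87, 4.47 and 4.31 in the MLP livers, against 3.85, 3.98, 4.04 and 3.89 in the MLP-F livers and 3.63, 3.91, 3.65 and 3.68 in the C livers. It rose by 0.71 (SE 0.09, adjusted p = 0.00168), and Gadd45b (0.44), Sult1a1 (1.20) and Klf9 (0.80) rose too, Klf9 not being called without the C pair (adjusted p = 0.0553). Hsd11b1, which regenerates active glucocorticoid, fell by 0.51, with means of 5.10 in MLP, 5.30 in MLP-F and 5.92 in C and an adjusted p of up to 0.0575 with 1 liver left out. Klf15, a transcription factor of amino acid breakdown from another list, rose by 1.05 (SE 0.15, adjusted p = 0.00269), at 1.89 ± 0.35 in MLP, against 0.82 ± 0.26 in MLP-F and 0.84 ± 0.19 in C (SD, n = 4 each).

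Many enzymes that act on foreign compounds rose. In phase I 10 of 39 probes rose (25.6%) and 1 fell, 8 and 2 without C replicates 1 and 4, and 6 rose without MLP replicate 2. In conjugation 10 of 41 rose (24.4%) and 1 fell, 9 and 0 without the C pair. Both probes of Cyp3a23-3a1 rose, by 2.01 and 1.89. The first stood at 2.86, 2.82, 2.89 and 3.06 in the MLP livers, against 0.15, 0.72, 0.33 and 0.17 in the MLP-F livers and 2.02, 1.49, 0.48 and 1.85 in the C livers. MLP was highest and C mostly intermediate, with C replicate 3 inside the MLP-F range, and MLP-F minus C was -1.12 (95% interval -1.72 to -0.52), with an adjusted p of 0.0918. Cyp2b15 stood at 5.56, 5.72, 6.34 and 6.03 in the MLP livers, against 3.70, 4.13, 4.40 and 3.53 in the MLP-F livers and 4.93, 4.71, 3.57 and 4.07 in the C livers, a rise of 1.78 (SE 0.26, adjusted p = 0.00266) without overlap. Nr1i2, the PXR receptor that controls Cyp3a genes, rose by 0.60 (adjusted p = 0.0144, and 0.0581 without MLP replicate 2), with means of 3.56 in MLP, 3.16 in MLP-F and 2.76 in C. Nqo1 (1.05), a quinone reductase, rose, and Fmo1 (-1.19) fell, with adjusted p of up to 0.0624 and 0.115 when 1 liver was left out.

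Among glucuronosyltransferases Ugt1a6 stood at 2.08, 2.08, 2.21 and 1.83 in the MLP livers, against 0.18, 0.98, 0.50 and 0.59 in the MLP-F livers and 0.91, 1.18, 0.80 and 1.34 in the C livers, a rise of 1.24 (SE 0.14, adjusted p = 0.000914). Ugt1a7c (0.99) and Ugt1a1 (1.16) rose as well, but Ugt1a1 stood at 2.87 ± 0.05 in MLP, against 1.04 ± 0.68 in MLP-F and 2.39 ± 0.65 in C (SD, n = 4 each), with C replicate 1 (2.98) above all 4 MLP livers and MLP-F minus C, at -1.35 (95% interval -2.11 to -0.59), the larger of its differences. Ugt1a genes share exons and Cyp3a genes are near copies of each other, so that a probe may read more than its named member. Gstm7 (0.82) and Gstm1 (0.99), glutathione transferases, rose, and Papss2 (0.49), which makes the sulphate donor, rose too. Gstm1 and Ugt1a1 lost the call with 1 liver left out (adjusted p of up to 0.0896 and 0.108). MLP-F minus C was -0.88 (95% interval -1.30 to -0.45) for Ugt1a7c and -0.72 (-1.31 to -0.13) for Gstm1. The largest fall of the list, Ugt2b37 (-2.31), had MLP replicate 1 at 4.50 and the other 3 MLP livers at 1.24 to 1.58, against 3.75 to 5.16 in MLP-F and 3.82 to 5.18 in C, and was not called without the C pair (adjusted p = 0.0805). On the list of bile acid synthesis and transport the efflux pumps Abcc3 (1.06) and Abcg5 (0.81), of which Abcg5 exports sterols, rose, with Cyp27a1 (0.41, adjusted p of up to 0.117 with 1 liver left out). These were 3 of 21 probes in all (14.3%, against 3.5% over all probes), and 5 without MLP-F replicate 3. Cyp27a1 was not called without the C pair (adjusted p = 0.0613), and its MLP-F minus C was 0.45 (95% interval 0.19 to 0.70).

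Lipid genes moved both ways. Of 27 probes of fatty acid and triglyceride synthesis 6 rose and 3 fell (4 and 3 without C replicates 1 and 4). Of the rises, Lpin1, a phosphatidate phosphatase, Dgat1 (0.88) and Agpat2 (0.83) build triglyceride and Plin5 (0.97) and Cidec (0.74) are lipid droplet proteins, whereas Pnpla2 (0.56) is a lipase that breaks stored triglyceride down. Lpin1 stood at 2.23, 1.99, 1.92 and 2.43 in the MLP livers, against 0.85, 0.98, 1.20 and 0.93 in the MLP-F livers and 1.37, 0.95, 0.64 and 0.92 in the C livers. It rose by 1.16 (SE 0.13, adjusted p = 0.000914) without overlap, and MLP-F minus C was 0.02 (95% interval -0.31 to 0.35). Falls were in the desaturases Fads1 (-0.70) and Fads2 (-0.65), and in Fabp2. Cidec, Pnpla2 and Fads2 lost the call with 1 liver left out (adjusted p of up to 0.104, 0.125 and 0.117). Sterol synthesis had Sqle (-0.80) and Acat2 (-0.82) lower and the efflux pump Abcg1 (1.22) higher, 3 of 21 probes (14.3%, against 6.72% over all probes). Sqle and Abcg1 lost the call with 1 liver left out (adjusted p of up to 0.0550 and 0.0608). In fatty acid oxidation 5 of 35 rose (14.3%) and 1 fell (2.86%), with the peroxisomal reductase Decr2 (0.56) first. Only 2 rose without MLP replicate 3 or 4 and 3 without MLP replicate 2 or MLP-F replicate 4.

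Peroxisomal genes rose in 9 of 31 probes and fell in 2. The 9 became 6 without C replicates 1 and 4, and 4, 5 and 5 without MLP replicate 2, 3 or 4. The import and assembly factors Pex16 (0.95), Pex13 (0.54) and Pex3 (0.38) and the lyase Hacl1 (1.01) rose. Hao1, the peroxisomal glycolate oxidase, stood at 2.09, 1.74, 1.27 and 1.23 in the MLP livers, against 2.54, 3.18, 2.34 and 2.61 in the MLP-F livers and 3.38, 3.25, 3.01 and 3.01 in the C livers. It fell by 1.33 (SE 0.18, adjusted p = 0.00210), and Crot, which exports shortened acyl chains, fell by 0.76. In both, MLP-F lay between MLP and C.

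**Figure D4:**
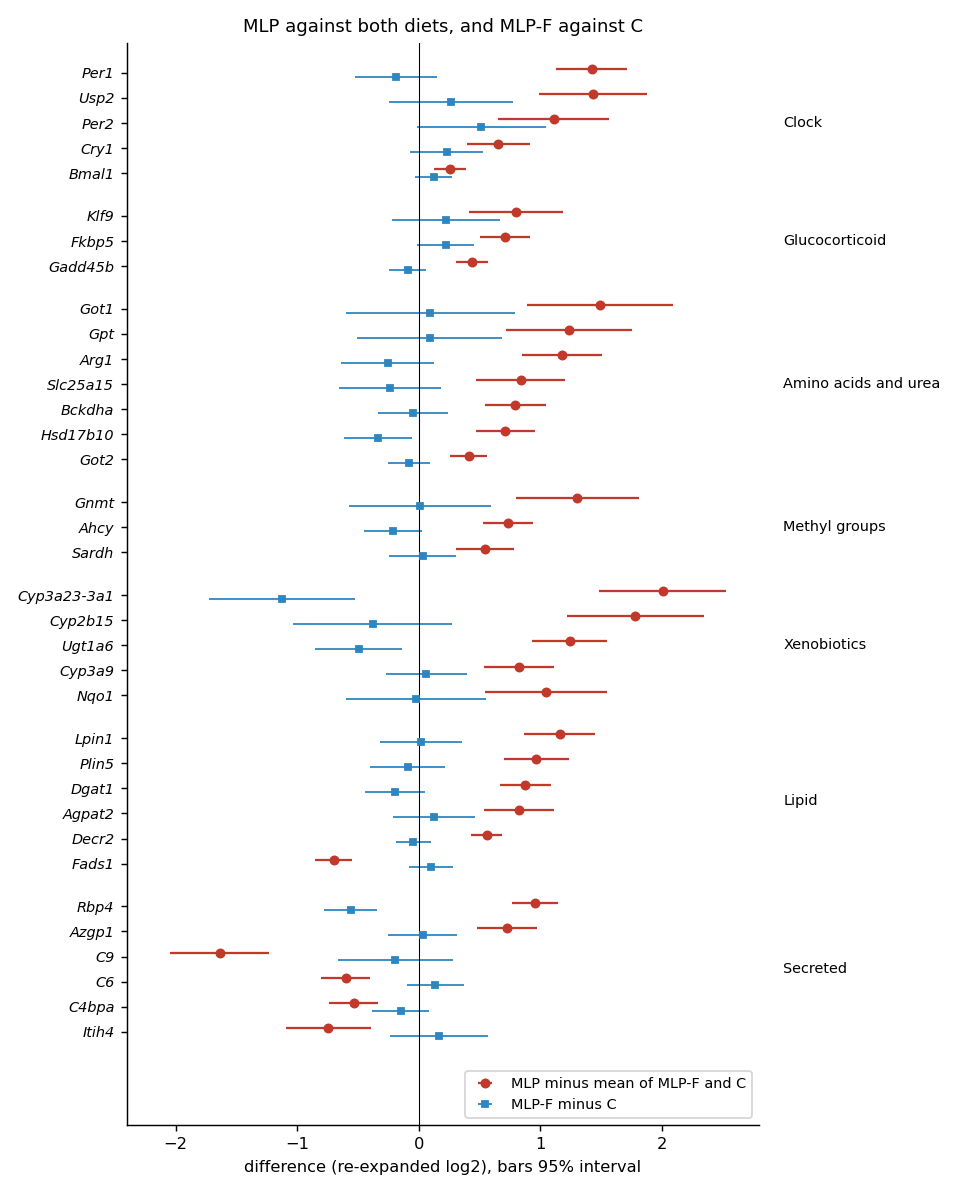
Difference of MLP from the mean of MLP-F and C (red circles) and of MLP-F from C (blue squares), with 95% intervals, on the re-expanded log2 scale, for 35 called genes in 7 groups. The red intervals exclude 0 because only called genes are shown, as at 1.43 for Per1 and -1.64 for C9. Most blue ones span it, the exceptions including Cyp3a23-3a1 (-1.12) and Rbp4 (-0.56).

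Secreted proteins of the liver split by class. In complement 5 of 24 probes fell and 1 rose. C9, the pore-forming last component, stood at 3.88, 3.60, 3.63 and 3.84 in the MLP livers, against 5.01, 5.20, 5.39 and 5.51 in the MLP-F livers and 5.34, 5.03, 6.23 and 5.27 in the C livers. It fell by 1.64 (SE 0.19, adjusted p = 0.000914) with no overlap, and C6 (-0.60), C8a (-0.40), C1s (-0.55) and the inhibitor C4bpa (-0.54) also fell. C1qc, made by macrophages, rose by 0.63 (adjusted p = 0.00388). It was the only probe called of 7 macrophage markers, C1qb being at 0.48 (adjusted p = 0.0501), and these markers summed to 13.1 to 16.3 in MLP, 12.6 to 14.7 in MLP-F and 12.6 to 13.4 in C. Of 26 acute phase probes 4 fell, Itih4 (-0.74), Apcs (-0.44), Hpx (-0.38) and Cp (-0.53), and the receptor Il6r (0.67) rose. With 1 liver left out the complement falls were at least 3 and the acute phase falls at least 1, both without MLP replicate 2, 3 or 4. The complement falls were 3 also without MLP-F replicate 1 or 4, and the acute phase falls 2 without MLP-F replicate 2 or 4. Of 32 coagulation and carrier proteins 4 rose and 0 fell, among them Azgp1 (0.73), Proc (0.46) and Rbp4, the plasma carrier of retinol.

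Rbp4 stood at 3.37, 3.55, 3.55 and 3.35 in the MLP livers, against 2.02, 2.35, 2.24 and 2.28 in the MLP-F livers and 2.74, 2.96, 2.53 and 2.89 in the C livers. The order was MLP, then C, then MLP-F with no overlap between any of the 3 groups, the rise against both was 0.96 (SE 0.09, adjusted p = 0.000293), and MLP-F minus C was -0.56 (95% interval -0.78 to -0.34), adjusted p = 0.0451. With Rbp2 and Aldh1a1, which oxidises retinal, 4 of 24 retinoid probes rose, and Bco1, which cleaves carotene, fell by 0.72.

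Red cell genes did not move as one. In 34 erythroid probes 2 rose, Hbe1 and Alas2 (0.34), the first enzyme of heme synthesis in red cells, and 5 fell, Car2 (-0.63), Ahsp (-0.49), Hemgn (-0.59), Car1 (-0.59) and Cpox (-0.56), with a median of -0.20. The Alas2 probe was dim in all groups, with means of 0.96 in MLP, 0.63 in MLP-F and 0.62 in C. Ahsp, the chaperone of alpha globin, stood at 7.56, 7.38, 7.44 and 7.61 in the MLP livers, against 8.05, 8.02, 7.62 and 8.12 in the MLP-F livers and 7.83, 8.12, 7.996 and 8.09 in the C livers. MLP replicate 4 and MLP-F replicate 3 were nearly equal. The 5 falls were 2 without MLP replicate 2 or 3 and 3 without MLP replicate 4 or MLP-F replicate 1, while Hbe1, Alas2, Car2 and Ahsp kept the call with any 1 liver left out.

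Interferon response genes had 5 rises and 1 fall in 23 probes, but 2 rises without C replicates 1 and 4, 1 without MLP replicate 3 and 2 without MLP replicate 1 or 4. Ifitm1 stood at 2.83, 2.54, 2.92 and 2.83 in the MLP livers, against 0.99, 1.35, 1.48 and 1.51 in the MLP-F livers and 2.34, 1.84, 2.08 and 2.00 in the C livers. It rose by 1.08 (adjusted p = 0.000675), and MLP-F minus C was -0.73 (95% interval -1.03 to -0.44), adjusted p = 0.0469, with MLP-F lowest. Ifit1 stood at 2.47, 2.18, 2.64 and 2.34 in the MLP livers, against 1.46, 1.68, 0.10 and 0.16 in the MLP-F livers and 1.17, 1.51, 1.28 and 1.48 in the C livers. It rose by 1.30 (adjusted p = 0.0170), with MLP-F replicates 3 and 4 near the floor of the scale, and was not called without the C pair (0.0520) or without MLP replicate 1 (0.0501) or 3 (0.0632).

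At the 28 probes called in both contrasts, MLP-F and C differed from each other as well. In some, such as Cirbp, Aldh1a1 and Pfkfb1, all MLP livers still lay outside the range of the others. In Gstm2 they did not. In 25 of the 28 probes MLP-F lay on the far side of C from MLP, and C was at times next to MLP. Gstm2 averaged 1.04 in MLP, against 0.38 in MLP-F and 0.89 in C, Irak1, a kinase of interleukin-1 signalling, 2.50, 1.97 and 2.43, and Tas2r7l 1.31, 0.79 and 1.27. For these 3 the difference from C alone was 0.14, 0.06 and 0.05, and that from MLP-F 0.66, 0.53 and 0.53. Cirbp, a cold-inducible RNA-binding protein, averaged 1.99, 1.32 and 1.73, and Aldh1a1 4.46, 3.42 and 4.12. In 3 probes MLP-F lay on the MLP side. Acad10, of the acyl-CoA dehydrogenase family, averaged 2.61 in MLP, 2.53 in MLP-F and 1.64 in C. Pfkfb1, the liver enzyme that sets the level of a regulator of glycolysis, stood at 4.23, 4.11, 4.13 and 4.35 in the MLP livers, against 3.81, 3.39, 4.10 and 3.72 in the MLP-F livers and 3.09, 2.86, 2.92 and 2.77 in the C livers. Here both low protein groups exceeded C, and MLP exceeded MLP-F by 0.45.

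The lists that follow moved less, beside 3.5% of all probes called higher and 3.21% lower. Hepatocyte transcription factors had 3 rises (12.5%) and 1 fall (4.17%) in 24 probes. The rises were Klf15 and Nr1i2, given above, and Creb3l3 (0.53), and the fall was Onecut1 (-1.20), with 1 rise without MLP replicate 2. In glycolysis and glucose output 3 of 31 probes rose (9.68%), Pfkfb1, Pdk1 (0.56), a kinase that inhibits pyruvate dehydrogenase, and Foxo3 (0.30). In the same list 2 fell (6.45%), Fbp1 (-0.47), of gluconeogenesis, and Pfkl (-0.38), of glycolysis. Of 13 probes of imprinted growth genes Cdkn1c rose and 2 fell, Igf2r (-0.38) and Nap1l4 (-0.25), and those falls were 0 without the C pair or without MLP replicate 2, 3 or 4, among others. Of 36 splicing regulator probes 4 fell, Srsf6 (-0.48), Hnrnpf (-0.42), Tra2a (-0.59) and Hnrnpm (-0.34), and Cirbp rose. Of 32 proteasome probes 3 fell (9.38%), Psmb10 (-0.51), Psma7 (-0.25) and Psmb8 (-0.45), and 0 rose. There were 0 falls without MLP replicate 3 and 1 without MLP replicate 1, 2 or 4 or MLP-F replicate 1. Chaperones and ER stress had 1 rise (3.45%), Xbp1 (0.53), and 2 falls (6.90%), Pdia6 (-0.57) and Pdia4 (-0.54), in 29 probes. The share of rises was near that of all probes. There were 0 rises and 1 fall without the C pair or without MLP replicate 2 or 3.

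Of 54 ribosomal protein probes 1 rose and 2 fell, but the rises were 3 without MLP-F replicate 2 and 0 without MLP replicate 4 or MLP-F replicate 4, and the falls were 1 without the C pair and without 10 of the 12 single livers. Of 37 oxidative phosphorylation probes 3 rose (6 without MLP-F replicate 2 and 5 without MLP replicate 4) and 0 fell, of 28 apoptosis probes 1 (Hrk) rose and 1 (Casp6) fell, and of 23 IGF and insulin probes 1 rose and 1 fell, 0 and 0 without the C pair. Over all probes 6.72% were called. Hrk, at 1.41, 1.53, 1.75 and 2.13 in the MLP livers, against 0.54, 0.31, 0.94 and 0.37 in the MLP-F livers and 0.28, 0.13, 0.22 and 0.26 in the C livers, did not overlap between MLP and the others. Without C replicates 1 and 4 the rises became 4 in the urea cycle, 4 in fatty acid oxidation, 4 in glycolysis and glucose output, 2 each in oxidative phosphorylation, hepatocyte transcription factors, splicing regulators and imprinted genes, 2 in bile acid genes, 3 in retinoid genes and 1 in the amino acid shortage response, and the falls 3 in the acute phase, 5 in DNA repair, 3 in splicing regulators and 0 in apoptosis. Neither count moved for nucleotide supply, complement, one-carbon, erythroid, coagulation and carrier, G1 or DNA methylation genes.

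**Figure D5:**
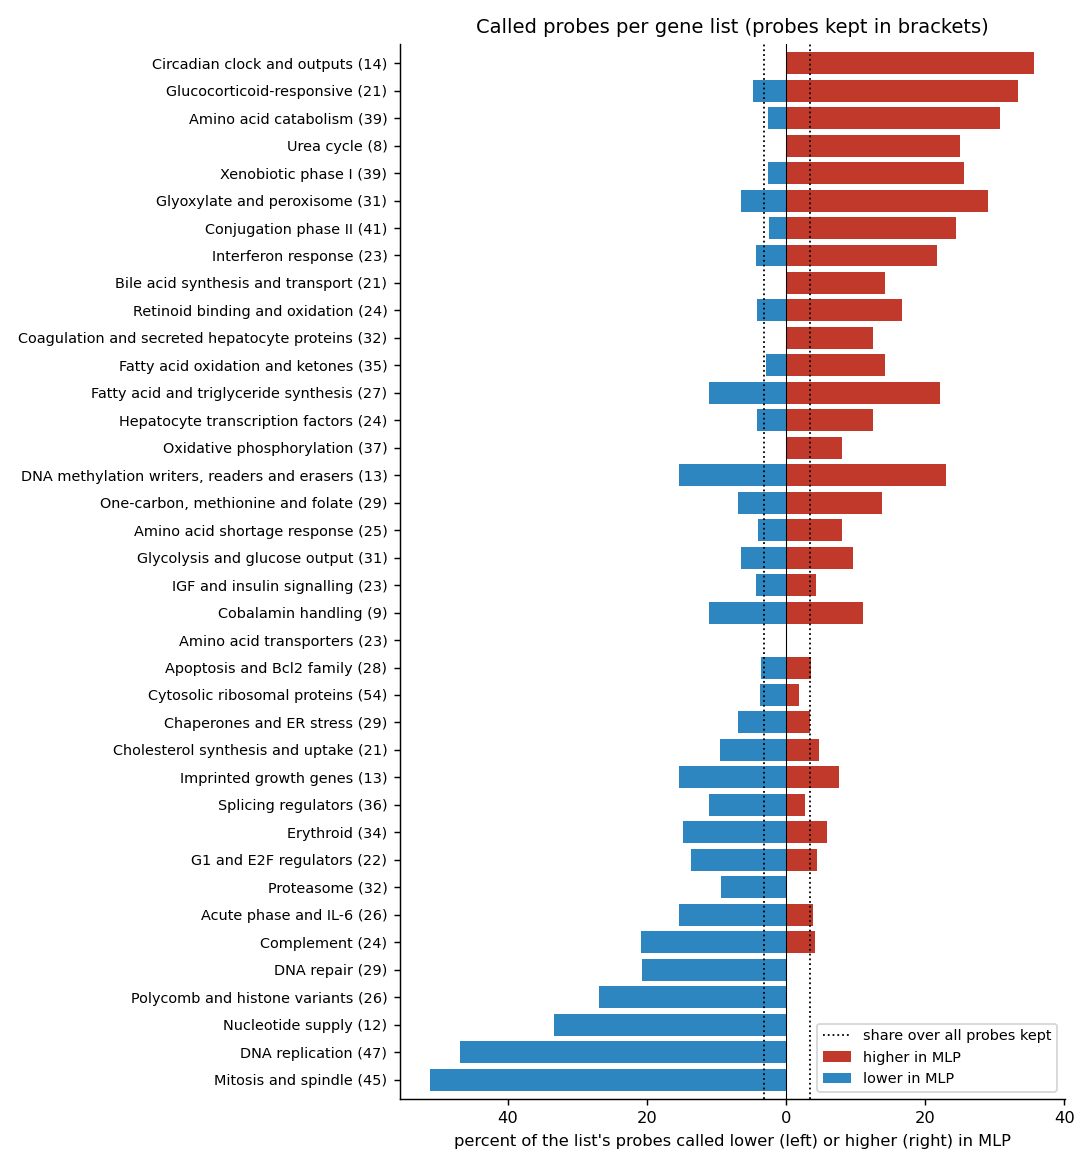
Percent of the kept probes of each of 38 gene lists that were called higher (right) or lower (left) in MLP than the mean of MLP-F and C, with the number of probes in brackets and dotted lines at the shares over all probes (3.5% higher and 3.21% lower). Mitosis (51.1% lower) and DNA replication (46.8% lower) are lowest and the circadian list (35.7% higher) is highest.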

How the data were processed

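Total RNA of 12 livers was read on an Illumina rat bead array. Per the study's methods the authors used beadarray and limma with quantile normalization. The background correction was not given in the sources used here. Next, the deposited log2 values of the series matrix were raised back as powers of 2 and 16 was taken off. The design had assumed intensities. A second table, with 12 columns that matched no sample label, was not used.

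Those probes whose mean passed the 30th percentile (15753 of 22505) were fitted by group with limma 3.58.1 in R 4.3.3 (9 residual and 2.26 prior degrees of freedom), with Benjamini-Hochberg adjustment over all of them at 0.05. The scripts were tested on simulated data. Symbols came from the platform annotation (13778 probes with 1 symbol, 0 with several, 8727 with none, and 40 Entrez IDs not found in RefSeq's table). Different probes of a gene stayed apart. Several probes were kept for 218 genes, of which 34 had a call and 7 more than 1.

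Named were the 10 largest called rises and falls with MLP outside the range of the other 8, the 5 smallest p-values, up to 4 called probes of each list by p, the genes the study names, and 5 genes also called between MLP-F and C. The rest of the members mentioned were chosen after their values were seen. Members and lists were chosen with earlier results of these data known. Replicate numbers do not pair livers: deviations of same-numbered livers correlated at -0.217 to 0.143. Alternatives were the deposited scale, other filters, quantile normalization, trended or robust eBayes, array weights, a single group of 8, a replicate block, averaged probes and livers left out.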

Additional observations from a re-analysis of the deposited data

Results flagged for a closer look

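In groups of 4 livers, 24 of 441 groups (5.44%) held a liver set apart from the other 3 by Dixon's test at the 95% level, and chance flags about 1 in 20. Among MLP livers, replicate 1 was set apart at 2.17 in Ccna2, 1.15 in Exo1, 2.20 in Acat2, 1.16 in Foxo3, 4.79 in Igf2r and 1.45 in C6, in each above its littermates. It was below them at 2.92 in Dnmt3b and 3.74 in ILMN_1352530. MLP replicate 2 was above at 0.22 (0.224) in Rfc2, replicate 3 below at 3.46 (3.455) in Dnmt3a, and replicate 4 below at 1.59 in Tsku and 1.54 in Pex3.

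Among MLP-F livers, replicate 1 stood high at 3.75 (3.745) in Uhrf2, replicate 3 at 5.59 in Cpt2 and replicate 4 at 3.05 (3.045) in Nasp, and replicate 2 stood low at 0.93 (0.926) in Per1. Among C livers, replicate 1 stood high at 4.63 in Crot and low at 1.33 in Cyp4a1, replicate 2 high at 3.91 in Fkbp5 and low at 5.72 in Pcna, replicate 3 high at 0.66 (0.664) in Bard1, 3.77 in Atf4 and 3.25 in Pdia4, and replicate 4 low at 2.84 in Fabp2.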

How the results depend on the processing

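The count of called probes (1058 as reported) lay between 815 with MLP-F and C as a single group of 8 and 1252 with array weights under the settings that keep all livers. With 1 liver left out it ranged between 580 and 1158, the higher probes between 311 and 620 and the lower between 269 and 540. MLP replicates 2, 3 and 4 moved it by over 1.5 times (580, 622 and 665 called, 554, 592 and 619 of them shared with the reported ones). Without MLP-F replicate 2 and C replicates 1 and 4 it was 1081, of which 787 were shared. With a replicate block it was 912 (472 higher, 440 lower), of which 819 were shared. No direction of a named gene turned under any of these. Of 144 named and called probes, 128 kept the call without C replicates 1 and 4. The number of arrays, 1 litter a diet and the inferred scale limit the precision.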
